A study of Homo sapiens with 4 samples.

Results

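CTCF peaks were examined in 4 genomic windows that hold the human HOXA, HOXB, HOXC and HOXD gene clusters. A peak belonged to a cluster when its summit, the base with the strongest signal, lay in a GRCh37 window fixed by position alone: chr7:27000000-27350000 for HOXA, chr17:46550000-46900000 for HOXB, chr12:54250000-54550000 for HOXC and chr2:176850000-177150000 for HOXD. This gave 61 of the 33868 peaks in the 4 deposited lists. Merging peaks that shared at least 1 bp gave 23 sites, of 13962 merged regions in all. Each site was numbered along its window, so that HOXB site 5 is the fifth from the low-coordinate end.

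The peaks come from chromatin immunoprecipitation and sequencing (ChIP-seq) of CTCF in K562, a human erythroleukaemia cell line. The cells of each of the 4 libraries had been exposed for 4 hours to 10 µM of an anthracycline, either aclarubicin or daunorubicin, and each drug has 2 biological replicates. Both drugs are planar molecules that slide between DNA base pairs; aclarubicin carries a chain of sugars and daunorubicin a single amino sugar, and daunorubicin also traps topoisomerase II on broken DNA. An untreated library was not analysed here, so every value sets the drugs against each other, and a gain under aclarubicin cannot be told apart from a loss under daunorubicin. Peak lists hold no expression values, so the labelled cell type was not checked against markers.

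HOX genes encode homeodomain transcription factors that give cells their position along the body axis, and their order on the chromosome follows the order in which they act. Because active and Polycomb-silenced genes sit side by side in a cluster, the border between them matters. CTCF, a zinc-finger protein that anchors chromatin loops, binds within and beside the clusters and is known as a boundary factor there.

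The 10 named genes lie toward the posterior ends of their clusters, apart from HOXB4. HOXA9 and HOXA10 act in blood progenitors and are often active in myeloid leukaemia, and HOXB4 is known for expanding blood stem cells. HOXA13 and HOXD13 pattern the digits, HOXB13 acts in the prostate, HOXC13 in hair and nail, and HOXC10 and HOXD10 in the hindlimb and lumbar spinal cord. In the RefSeq gene order, HOXA13 lies beside EVX1, HOXD13 beside EVX2, HOXC13 beside CALCOCO1, and HOXB13 between PRAC1 and TTLL6, so these 4 genes close the posterior end of their clusters. HOXB9 lies beside PRAC2. The gene table at hand was made for GRCh38 and the peaks are on GRCh37, so which gene, exon or promoter a site lies in was not analysed here.

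RefSeq promoter sequences, 250 bases before and 50 after a gene's start, were at hand for 5 of the 10 genes. A core of the CTCF consensus, read as CCA, any 2 bases, AG, any 2 bases and GGC and searched on both strands, occurred in 1 of the 6 promoters of these genes, against 2.41% of all 35116 promoters in the table. The match lies upstream of a HOXA10 start and is shown because no other of these 6 promoters held the core. It is printed 5′ to 3′ along the gene's strand, with the match in capitals, and comes from GRCh38.p14 chr7:27179897-27179926, minus strand.
HOXA10: gcgcagccgCCACGAGATGGCgcacttccg
It was not set against the peak positions, which are on the other build, and a match of letters is not a binding site.

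All 4 clusters held CTCF peaks in every library, and each held at least as many after aclarubicin as after daunorubicin. Over the 4 windows there were 22 and 18 peaks in aclarubicin replicates 1 and 2, and 10 and 11 in daunorubicin replicates 1 and 2. The groups did not overlap. The windows averaged 20.0 ± 2.83 peaks (SD, n = 2) after aclarubicin and 10.5 ± 0.707 (SD, n = 2) after daunorubicin, which is 1.90-fold more. The log2 difference of 0.92 compares with a pooled replicate SD of 0.16 and has an exact two-sided permutation p of 0.333, the smallest that 2 against 2 libraries can give. The whole lists, with 10633 and 10711 against 5886 and 6638 peaks, differed by 0.77. The HOX peaks were 0.207% and 0.168% of the aclarubicin lists and 0.170% and 0.166% of the daunorubicin lists. The 95% Wilson intervals of these shares, which cover counting error only, ran from 0.137% to 0.313% in aclarubicin replicate 1 and from 0.0923% to 0.312% in daunorubicin replicate 1, so a drug difference in the share taken by the HOX windows was not detectable. With every list reduced to its 5886 strongest peaks, the windows held 15 and 12 peaks under aclarubicin and 10 and 11 under daunorubicin, and the log2 difference was 0.36.

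By cluster, the HOXB window held 8 and 5 peaks under aclarubicin and 3 and 3 under daunorubicin. The HOXD window held 6 and 6 against 3 and 3. The HOXA window held 5 and 4 against 1 and 3. In these 3 clusters each aclarubicin count exceeded both daunorubicin counts, as in the whole lists, which differed by 0.77 on the log2 scale. The HOXC window was the exception, with 3 and 3 peaks under aclarubicin and 3 and 2 under daunorubicin. Its log2 difference of 0.29 equalled its pooled replicate SD of 0.29. Counts this small cannot tell HOXC apart from the whole lists. Aclarubicin replicate 1 gave the HOXB count its spread, since 3 of its 8 peaks there were called in no other library.

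CTCF peaks were dense in the clusters under both drugs. The windows held 16.9 and 13.8 peaks per Mb under aclarubicin and 7.69 and 8.46 per Mb under daunorubicin. The rest of the same 4 chromosomes, from the first to the last peak on each, held 3.77 and 3.80 per Mb and 2.12 and 2.34 per Mb. The windows were thus 4.49 and 3.64 times as dense in the aclarubicin libraries and 3.63 and 3.61 times in the daunorubicin libraries. The ratio was highest in HOXD, at 5.94 to 7.42 over the 4 libraries. In HOXB, on the peak-rich chromosome 17, it was 1.68 to 2.86. These ratios are a description, with no test.

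The peaks did not spread evenly over their windows. The 5 HOXA sites spanned 51.5 kb of a 350.0 kb window and the 3 HOXC sites 43.4 kb of a 300.0 kb window. The 8 HOXB sites spanned 155 kb and the 7 HOXD sites 170 kb. Gaps between neighbouring sites ran from 1.31 kb, between HOXB sites 3 and 4, to 78.1 kb, between HOXD sites 1 and 2. HOXA stood alone: the nearest peaks outside its window lay 583 kb below its lower edge and 1079 kb above its upper edge. The upper one was called in 1 daunorubicin library only, the lower one in all 4 libraries. Outside HOXD the nearest peaks lay 1209 kb below, called in 1 aclarubicin library only, and 170 kb above, called in all 4 libraries. HOXB had a region of all 4 libraries 15.1 kb below its lower edge, and HOXC one 35.4 kb above its upper edge. The site nearest an edge was HOXD site 1, which lay 16.6 kb inside.

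**Figure D1:**
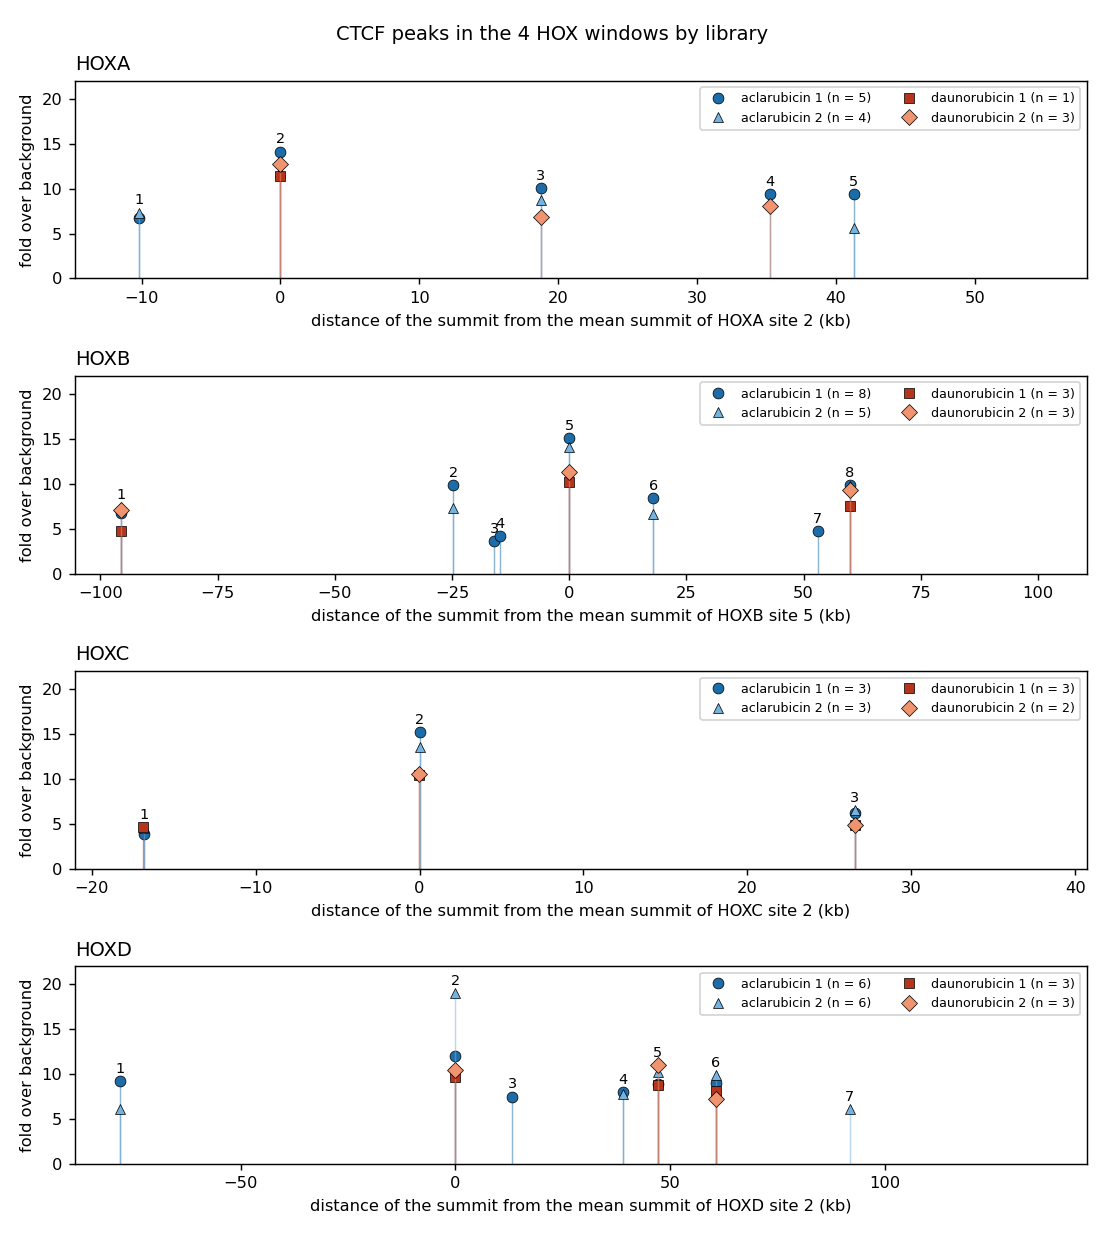
CTCF peaks in the HOXA, HOXB, HOXC and HOXD windows, with the distance of each summit from the strongest site of its cluster (kb) on the x axis and the authors' fold over background on the y axis. Each symbol is the peak of 1 library, the numbers are site numbers, and the counts of peaks per library are in the keys: every site with a daunorubicin symbol also has an aclarubicin symbol.

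Of the 23 sites, 9 were called in all 4 libraries: HOXA site 2, HOXB sites 1, 5 and 8, HOXC sites 2 and 3, and HOXD sites 2, 5 and 6. This was 39.1% of the HOX sites, against 29.5% of all regions. Another 6 sites were called in each aclarubicin replicate but under daunorubicin in neither: HOXA sites 1 and 5, HOXB sites 2 and 6, and HOXD sites 1 and 4. They were 26.1% of the HOX sites, against 23.8% of all regions, which is close to the background. The count was 10 without aclarubicin replicate 2, when replicate 1 alone defines the class. The reverse pattern, calls in each daunorubicin replicate and none under aclarubicin, occurred at 0 sites, against 3.17% of all regions. Calls in 1 aclarubicin and each daunorubicin replicate also occurred at 0 sites, against 2.2%. Sites called in both aclarubicin replicates and 1 daunorubicin replicate numbered 2 (9.86% of all regions), and 1 site was called in 1 library of each drug (2.73% of all regions). The remaining 5 sites were called in 1 aclarubicin library only (21.4% of all regions), 4 of them in replicate 1. No HOX site was called under daunorubicin alone in either replicate, against 7.27% of all regions with a call in 1 daunorubicin library only.

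Among the 17 sites found in both aclarubicin replicates, 11 had a call in at least 1 daunorubicin library, a share of 64.7% against 62.3% of the 8824 such regions in the series. Replicates shared most of their HOX peaks. In aclarubicin replicate 1, 17 of 22 peaks (77.3%) were found in replicate 2, and 17 of 18 (94.4%) the other way. In daunorubicin replicate 1, 9 of 10 (90.0%) were found in replicate 2, and 9 of 11 (81.8%) the other way. The 95% Wilson intervals of these shares all held the share of the whole list, which was 83.1%, 82.4%, 82.8% and 73.5% in the same order.

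The signal at each site was described by the authors' fold over background and by the number of fragments over the summit. That number is not in the lists; it was solved for from the fold and the p-value, assuming how the peak caller made them, and came out as a whole number, within 0.02, in 100% of peaks. The same formula gives the background, the number of fragments that the peak caller would have expected at that place. Whether it includes fragments of the peak itself was not tested. The lowest background of a list gave its relative depth. Taking aclarubicin replicate 1 as 1, replicate 2 had a depth of 1.04, and the daunorubicin replicates had depths of 0.997 and 0.814. Fragments divided by this depth are called depth-scaled, and ratios between the drugs are of geometric means of depth-scaled fragments.

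HOXB site 5 (chr17:46695816-46696402) carried the most fragments of any HOX site. It had 274 and 289 fragments under aclarubicin and 107 and 117 under daunorubicin, with folds of 15.1 and 14.2 against 10.2 and 11.3. Both aclarubicin replicates lay well above both daunorubicin replicates, and the depth-scaled ratio of daunorubicin to aclarubicin was 0.45. On the log2 scale this is a difference of -1.15, against a pooled replicate SD of 0.21. HOXC site 2 (chr12:54399622-54400230) was close behind, with 264 and 224 fragments under aclarubicin and 102 and 96 under daunorubicin. Its folds were 15.2 and 13.6 against 10.5 and 10.6, and its ratio was 0.461, again with no overlap between the drugs. These sites had the lowest ratios of the 9 shared sites. Among all regions called in the 4 libraries, 22.1% had a ratio as low as HOXB site 5 or lower, and 23.9% for HOXC site 2. Both sites stayed high in each list. By fold, HOXB site 5 was at percentiles 95.02 and 94.3 of the aclarubicin lists and 85.2 and 85.7 of the daunorubicin lists.

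HOXD site 2 (chr2:176944425-176944932) differed between the aclarubicin replicates. It had 86 fragments in replicate 1 and 190 in replicate 2, and 58 and 55 under daunorubicin. Its folds were 12.0 and 19.0 under aclarubicin and 9.68 and 10.4 under daunorubicin. Both aclarubicin values were above both daunorubicin values, but the ratio of 0.501 rests on replicates that were 2.12-fold apart after scaling to depth. Replicates 2-fold or more apart were rare, at 0.34% of the regions called in both aclarubicin lists, and this was the sole such region among the 17 HOX sites. The other 16 differed by at most 1.72-fold, the value at HOXA site 5.

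HOXA site 2 (chr7:27200572-27200986) was the sole HOXA site called in all 4 libraries. It had 70 and 55 fragments under aclarubicin and 37 and 44 under daunorubicin. After scaling to depth the groups overlapped, since daunorubicin replicate 2 lay above aclarubicin replicate 2, and the ratio was 0.737. Its folds were 14.1 and 11.9 against 11.4 and 12.7, and its fold percentiles were 92.6 and 85.5 against 91.8 and 92.8, so the site ranked near the top of every list.

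HOXB sites 1 and 8 flanked the cluster's central site at some distance. HOXB site 1 (chr17:46600349-46600758) had 76 and 83 fragments under aclarubicin and 37 and 55 under daunorubicin, a ratio of 0.643. HOXB site 8 (chr17:46755757-46756208) had 69 and 74 against 43 and 47, a ratio of 0.713. At both sites each depth-scaled daunorubicin value lay below both aclarubicin values. HOXB site 1 was the less even of the pair between daunorubicin replicates, which were 1.82-fold apart after scaling.

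HOXC site 3 (chr12:54426244-54426951) was weak by rank. It had 57 and 61 fragments under aclarubicin and 32 and 30 under daunorubicin, a ratio of 0.595, and folds of 6.17 and 6.52 against 4.84 and 4.86. Its replicates were the most alike of the shared sites, with a pooled SD of 0.10 against a log2 difference of -0.75. Its fold percentiles were 34.5 and 39.2 under aclarubicin against 11.6 and 7.49 under daunorubicin. This gap depended on list length: in lists of 5886 peaks each, the mean percentiles differed by -2.55 points.

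HOXD sites 5 and 6 lay 13.4 kb apart. HOXD site 5 (chr2:176991706-176992167) had 54 and 59 fragments under aclarubicin and 48 and 63 under daunorubicin, which gave a ratio of 1.10. This was the sole shared HOX site with a ratio above 1, but its daunorubicin replicates lay on either side of both aclarubicin replicates, and the log2 difference of 0.14 was below the pooled replicate SD of 0.34. HOXD site 6 (chr2:177005128-177005632) had 46 and 58 fragments against 44 and 28, a ratio of 0.77, with both daunorubicin values lower after scaling. Whether these neighbours differ in their response was not tested.

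**Figure D2:**
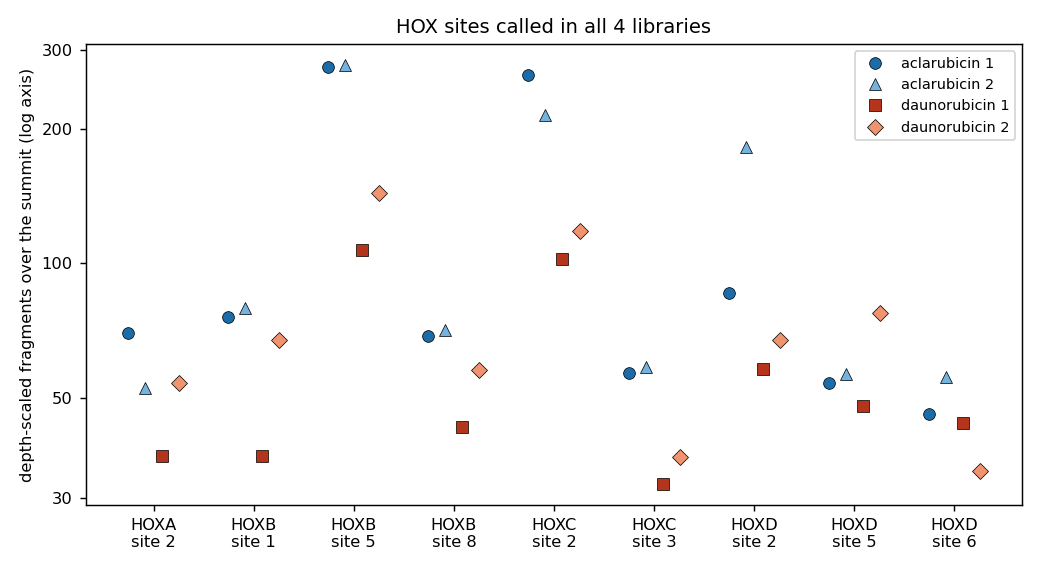
Depth-scaled fragments over the summit (y axis, log scale) at the 9 HOX sites called in all 4 libraries (x axis), with 1 symbol per library. Both daunorubicin symbols lie below both aclarubicin symbols at 7 of the 9 sites, and overlap them at HOXA site 2 and HOXD site 5.

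Over the 9 shared sites, the median ratio of daunorubicin to aclarubicin fragments was 0.643, with a range from 0.45 to 1.10. The median over all 4122 shared regions was 0.615, with 25% of regions below 0.466 and 75% below 0.837. Both daunorubicin values were below both aclarubicin values at 7 of the 9 sites, against 71.6% of all shared regions, and above both at 0 of 9, against 7.13%. The HOX sites therefore lay within the range of the series. The library medians over the 9 sites were 70.0 and 71.1 depth-scaled fragments under aclarubicin and 44.1 and 67.6 under daunorubicin. They differed by -0.37 on the log2 scale (daunorubicin minus aclarubicin), less than the median of the site ratios. The daunorubicin replicates differed by more than this, and replicate 2 lay close to both aclarubicin medians, so this difference rests mostly on daunorubicin replicate 1. An exact two-sided permutation test of these library medians gave p = 0.333, again the smallest possible.

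**Figure D3:**
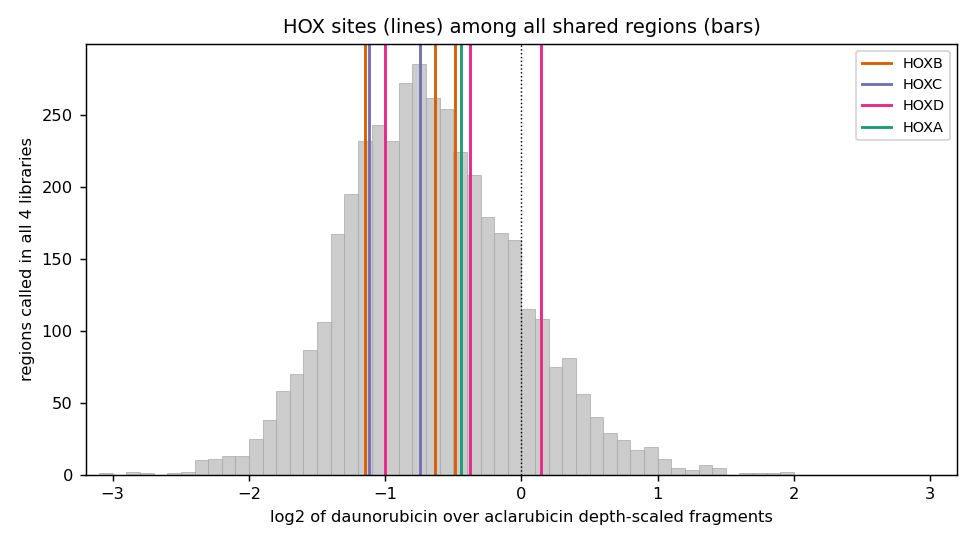
Log2 ratio of daunorubicin to aclarubicin depth-scaled fragments (x axis) over the 4122 regions called in all 4 libraries (bars, number of regions on the y axis) and at the 9 shared HOX sites (coloured lines, 1 colour per cluster). The HOX lines run from -1.15 at HOXB site 5 to 0.14 at HOXD site 5 and lie inside the bulk of the bars, and the dotted line marks equal signal.

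Most shared HOX peaks were narrower under daunorubicin. At HOXC site 2 the peak was 609 and 567 bp long under aclarubicin and 405 and 448 bp under daunorubicin. At HOXB site 5 it was 543 and 584 bp against 386 and 435 bp. HOXD site 6 differed the most, with 483 and 463 bp against 332 and 266 bp. Both daunorubicin peaks were narrower than both aclarubicin peaks at 6 of the 9 sites, against 67.6% of all shared regions, and wider at 0 of 9, against 3.01%. The median difference in mean width was -77 bp at the HOX sites and -81 bp over the series. The widths overlapped between the drugs at the other 3. HOXD site 2 was 396 and 508 bp long under aclarubicin and 477 and 382 bp under daunorubicin. HOXD site 5 was 28 bp wider on average under daunorubicin, and HOXC site 3 was 584 bp long in daunorubicin replicate 2 and 357 bp in replicate 1. Summits stayed in place: over the 4 libraries they fell within 8 bp at HOXA site 2 and within 48 bp at HOXD site 5, the lowest and highest ranges of the 9 sites.

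By rank of the fold within its list, a shared HOX site differed by a median of -10.2 percentile points (daunorubicin minus aclarubicin), against a median difference of -9.95 points over all shared regions. Both daunorubicin percentiles were below both aclarubicin percentiles at 7 of the 9 sites, against 51.2% of all shared regions, and above both at 0 of 9, against 16.4%. The direction depended on list length. In lists of 5886 peaks each, the median difference was 3.63 points in the other direction, with 5 of the 9 sites ranking higher under daunorubicin, and the median over 3330 shared regions was -0.71 points.

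The background under the peaks was higher in HOXB and HOXC than in HOXA and HOXD by median, with single HOXB peaks in the range of HOXD. Under aclarubicin the median background was 13.0 and 13.3 fragments in HOXB and 12.3 and 12.4 in HOXC, against 2.68 and 2.75 in HOXA and 4.70 and 4.93 in HOXD. The medians over all peaks of the lists were 5.58 and 5.98. Under daunorubicin HOXB had 6.997 and 6.88 and HOXC 6.17 and 6.76, whereas HOXA had 2.32 and 2.22 and HOXD 4.57 and 4.37, with list medians of 4.23 and 3.52. HOXB and HOXC therefore lay above the median of their list in each library and HOXA below it. The order of sites thus depends on the measure. HOXB site 1 had more fragments than HOXA site 2 in both aclarubicin libraries but a lower fold, with 6.74 and 7.42 against 14.1 and 11.9. At the 9 shared sites the depth-scaled background was also lower under daunorubicin, by a median ratio of 0.75 against 0.687 over the series. Both daunorubicin values were below both aclarubicin values at 7 of the 9 sites, against 80.1% of all shared regions. The background ratio was lowest at HOXB site 5 (0.589) and highest at HOXD site 5 (1.05), as was the fragment ratio. Whether the background is separate from the peak signal was not tested.

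**Figure D4:**
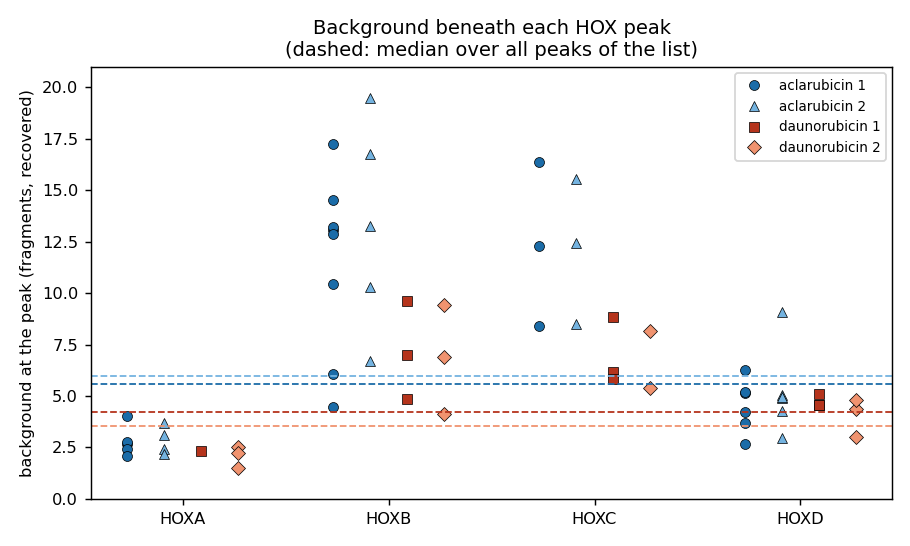
Background beneath each HOX peak, in fragments recovered under the assumed formula (y axis), by cluster (x axis) and library (symbols), with dashed lines at the median over all peaks of each list. HOXA peaks lie between 1.49 and 4.02 and HOXB peaks between 4.13 and 19.5 fragments.

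By fragments and by −log10 q, the strongest HOX sites called in both aclarubicin replicates and without a daunorubicin call were HOXB sites 2 and 6, on either side of HOXB site 5. HOXB site 2 (chr17:46671257-46671682) had 138 and 104 fragments under aclarubicin. Its folds were 9.89 and 7.36, and its −log10 q 85.2 and 51.9. HOXB site 6 (chr17:46713651-46714292) had 130 and 116 fragments. Its folds were 8.43 and 6.59, and its −log10 q 71.8 and 52.7. In each aclarubicin library these sites had more fragments than HOXB sites 1 and 8, which were called in all 4 libraries. By mean −log10 q they ranked 88 and 121 of the 3326 regions called in both aclarubicin replicates and no daunorubicin replicate. Their mean −log10 q exceeded that of 65.6% and 60.8% of the regions shared by all 4 libraries. By fold they stood lower, at mean percentiles of 60.2 and 49.5 under aclarubicin, against a median of 74.3 over those shared regions. In aclarubicin replicate 2 their folds were below the 7.42 and 9.72 of HOXB sites 1 and 8. In aclarubicin replicate 1 both folds were above the 6.74 of HOXB site 1, and HOXB site 2 was level with HOXB site 8, at 9.90.

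A site without a call has no deposited value, so no ratio was computed there. As a guide to what could have been called, the background of HOXB site 5 in each daunorubicin list was taken for both neighbours. Among the 288 peaks of daunorubicin replicate 1 with a background within 10% of it, the fewest fragments were 27. Among the 186 such peaks of replicate 2, the fewest were 31. After scaling to depth these are 23.1% and 32.4% of the aclarubicin mean at HOXB site 2, and 22.5% and 31.7% at HOXB site 6. The lowest ratio at a shared HOX site was 0.45. Shared sites are by definition called under daunorubicin, so that value is no yardstick for sites without a call. This reading assumes that the background at HOXB sites 2 and 6 resembled that of HOXB site 5, which lies 24.7 kb and 17.9 kb away, and that the peak was long enough to be called.

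The other sites of this kind had fewer fragments and a lower −log10 q, though by mean fold percentile HOXD sites 4 and 1, at 53.7 and 50.4, stood above HOXB site 6. HOXD site 4 (chr2:176983640-176983991) had 48 and 46 fragments under aclarubicin and folds of 7.94 and 7.77, and lay 8.14 kb from HOXD site 5, where the signal was similar under both drugs. HOXD site 1 (chr2:176866441-176866894) had 33 and 23 fragments and folds of 9.27 and 6.08. HOXA site 1 (chr7:27190388-27190758) had 24 and 29 fragments with folds of 6.79 and 7.34, and HOXA site 5 (chr7:27241893-27242293) had 28 and 17 with folds of 9.43 and 5.65. By mean −log10 q these 4 sites ranked between 917 and 2275 of the 3326. At HOXA sites 1 and 5 and at HOXD site 1, the same reading of the daunorubicin lists gave fewest callable signals of 42.7% to 72.8% of the aclarubicin mean, against 37.0% and 45.4% at HOXD site 4. The backgrounds were those of the nearest site called in the same list. For HOXD site 1 that was HOXD site 2, 78.1 kb away. For HOXA site 1 it was HOXA site 2, 10.2 kb away, and for HOXA site 5 it was HOXA site 2 at 41.3 kb in daunorubicin replicate 1 and HOXA site 4 at 6.09 kb in replicate 2. For HOXD site 4 it was HOXD site 5. In lists of 5886 peaks, 3 of the 16 HOX sites left were aclarubicin-only: HOXB sites 2 and 6 and HOXD site 4. The share of such regions over all regions of these shorter lists is not given here, so this count has no background beside it.

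HOXA site 3 (chr7:27219317-27219698) and HOXC site 1 (chr12:54382900-54383249) were called in 3 libraries. HOXA site 3 had 37 and 29 fragments under aclarubicin and 21 in daunorubicin replicate 2, with folds of 10.1, 8.76 and 6.84. HOXC site 1 had 50 and 60 under aclarubicin and 32 in daunorubicin replicate 1. Its folds, 3.83 and 4.54 against 4.60, were low in all 3 libraries, and its background was 12.3 and 12.4 fragments against 6.17. HOXA site 4, the sole site with a call in 1 library of each drug, had a fold of 9.40 in aclarubicin replicate 1 and 8.02 in daunorubicin replicate 2.

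The sites of aclarubicin replicate 1 alone were HOXB sites 3, 4 and 7, with folds of 3.60, 4.18 and 4.78, and HOXD site 3, with a fold of 7.49. HOXD site 7, with a fold of 6.09, was called in aclarubicin replicate 2 alone. HOXB sites 3 and 4, the closest pair of sites in the 4 clusters, stood on a background of 13.2 and 12.9 fragments, and were at percentiles 4.72 and 10.4 of their list by fold but at 24.2 and 37.0 by −log10 p.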

How the data were processed

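The authors deposited 1 peak list per library in the 10 columns of the narrowPeak format, without a header. Per the submitters' processing notes, Bowtie2, Picard and bedtools were used with GRCh37 (hg19); the peak caller, its threshold and any control library are not given in the sources used here. From the format, the deposited values are a fold enrichment ratio, a −log10 p and a −log10 q per peak and a score that follows the −log10 q. They are the authors' own, and were used within a list. The files give no read totals. The lowest −log10 q was 2.02 to 2.21.

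The HOX windows, the 10 genes and the measures were chosen with earlier results of these data known. All 23 sites are accounted for; those called in at least 3 libraries, up to 6 per cluster, are given with values in every library. Other sites given in full, and the promoter search, were chosen after their values were seen. The planned motif search at the peaks was not run, for want of a GRCh37 genome.

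Fragments k and background λ were solved from the deposited columns by taking the fold as (k + 1)/(λ + 1) and the −log10 p as a Poisson upper tail beyond k with mean λ. The solution was tested on data simulated with this same formula, which checks the solving step but cannot check the assumed formula. Relative depth was the lowest λ of a list over its shortest peak width. A region's value in a library is that of its peak with the highest −log10 p. Libraries were compared with exact permutation tests. The labels call the replicates biological but do not say how they were made, so the spread between them may be partly technical. The labels state no pairing of libraries by replicate number, and none was used in the main comparisons. Over 4122 shared regions, replicate differences of the drugs correlated at -0.08, which cannot show whether libraries were made in pairs.

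Python 3.11.15, numpy 2.4.6, pandas 2.3.3, scipy 1.17.1 and matplotlib 3.10.9 were used.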

Additional observations from a re-analysis of the deposited data

How the results depend on the processing

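With 2 libraries per drug no test could pass 0.05, so direction and size are given. The log2 difference in peak number kept its direction under stricter thresholds (−log10 q of 5 and 10, fold of 5) and membership by overlap. It also did so with windows widened by 100 kb, equal list lengths and each replicate left out. It lay between 0.36 and 1.07, and was 0.64 in the wider windows. The whole lists differed by 0.77 in the main setting, and lists of equal length cannot differ in peak number. Their difference at the other settings is not given here, so the kept direction is not shown to be particular to the HOX windows. Leaving out 1 replicate gave a HOX difference of 0.78 to 1.07. With the replicate number as a block it was 0.92 and the fragment ratio 0.643, unchanged by construction; the smallest p of a paired test is 0.5. Sites called in all libraries numbered 7 to 13, with 9 or 10 when a replicate was left out. The 13 came from the wider windows, which take in sites outside the original ones, and the 7 from the fold threshold. Sites of daunorubicin alone stayed at 0. Aclarubicin-only sites fell from 6 to 3 with equal lists, a setting for which the share over all regions is not given. They numbered 7 to 10 with a replicate left out. The 10 came without aclarubicin replicate 2, when sites of replicate 1 alone also count. The median ratio of fragments lay between 0.568, without depth scaling, and 0.739. The median difference in fold percentile reversed to 3.63 points with equal lists, which drop the weak end of the longer lists; with a replicate left out it was -10.8 to -8.33 points.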
